A study of Homo sapiens with 6 samples.

Results

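The genes described here are those of the HOXD cluster on chromosome 2 with its flanking genes EVX2 and MTX2, after knockdown of the long non-coding RNA HOTAIR. Members were taken by name: 10 symbols were listed, and 8 of them matched a row among the 19589 features of the authors' deposited table. These were HOXD3, HOXD4, HOXD8, HOXD9, HOXD10, HOXD11, HOXD13 and MTX2. HOXD1 and EVX2 matched no row and were not analysed here. The libraries, labelled as HepG2 (a human line from a liver tumour), came from cells that had received siRNA directed at HOTAIR (siHOTAIR) or a control siRNA with no named target (siNC). Every library was made with a stranded kit after removal of ribosomal RNA, and each group has 3 libraries in the labels. How long after transfection the RNA was taken does not stand in the sources used here.

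HOX genes encode homeodomain transcription factors that set positional identity along the body and limb axes. They stand in 4 clusters in humans, HOXA to HOXD, and genes of the same number in different clusters are paralogues. Within a cluster, low-numbered genes act in anterior regions and high-numbered genes (numbers 9 to 13) in posterior and distal ones. HOTAIR is transcribed from the HOXC cluster, and was first described as a repressor of the HOXD cluster in trans, by bringing the histone methyltransferase complex PRC2 to it. Whether HOXD genes were higher after its knockdown is therefore the question these data bear on.

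The means of the authors' deposited table are whole-number sums of reads from 5 libraries, 3 of siHOTAIR and 2 of siNC, so 1 of the 3 labelled siNC libraries is unaccounted for. Reads per library were solved from those means for features with a mean of up to 500, and a normalized count is such a read count divided by the library's size factor. The libraries are called siNC a and b, with size factors of 1.19 and 0.893, and siHOTAIR a, b and c, with 1.15, 0.934 and 0.888. The letters are names only. HOTAIR stood at 202 and 150 normalized counts in siNC a and b and at 62.4, 78.2 and 59.7 in siHOTAIR a, b and c, each lower than both siNC values (2.58-fold lower, adjusted p = 5.6e-11, in the authors' deposited table). The liver label did not match its markers: of 16 liver and HepG2 markers 8 had a row, and 6 of these, including APOA1, APOA2 and SERPINA1, held at most 2 reads over the 5 libraries together. HNF4A, a liver transcription factor, had 24 reads in all. The labels do not name separate cultures, so p-values here cover no more than the spread among these libraries, and that spread may be technical.

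After knockdown no HOXD gene was called higher, and 2 of the 8 genes were called lower. These were the posterior gene HOXD11, which was 2.84-fold lower (adjusted p = 0.0244), and MTX2, which was 1.25-fold lower (adjusted p = 0.0295). Both calls are from the DESeq2 fit in the authors' deposited table. Without a call there, HOXD8 (0.36), HOXD3 (0.45) and HOXD13 (0.41) had log2 fold changes above 0, and HOXD4, HOXD9 and HOXD10 below 0. The authors' own call word, in their other deposited table, marked 0 of the 8 genes. HOXD10, next to HOXD11, was 2.16-fold lower in the DESeq2 fit with an adjusted p of 0.11. HOXD9, the HOXD gene with the most reads (182), differed by less than its error. Only 6 of the 8 genes carry an adjusted p in the DESeq2 fit, and 2 of these 6 were called lower and 0 higher. HOXD3 (9 reads in all) and HOXD13 (4 reads) carry none. Among the 14597 features that carry one, 40.4% were called, 2975 (20.4%) as lower and 2925 as higher, so the count of members called was near the background. The median log2 fold change of the 6 genes was -0.32, against 0.01 over all tested features in the authors' deposited table. At an unadjusted p under 0.05, which also takes in HOXD3 and HOXD13, 2 of 8 were lower and 0 higher. The share of all features under that threshold is not given here, so this count has no background beside it. A second test (limma with a mean trend on the recovered counts) called 3 of 6 lower and 0 higher, with 24.0% of its 10141 features called lower.

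HOXD11 and HOXD10 encode posterior HOX proteins known for patterning the limb and the lower trunk. HOXD11 had 10.0 and 11.2 normalized counts in siNC a and b, and 2.60, 0 and 3.38 in siHOTAIR a, b and c. Each siHOTAIR value lay under both siNC values. The group means were 10.6 ± 0.818 (SD, n = 2) and 1.99 ± 1.77 (SD, n = 3), so that siHOTAIR stood at 18.8% of siNC. These levels rest on 22 reads in siNC and 6 in siHOTAIR, so the size of the ratio is imprecise. The 0 in siHOTAIR b allows up to 3.21 normalized counts, the worth of 3 reads there. The log2 fold change of HOXD11 in the authors' deposited table was -1.51 (SE 0.574), a value shrunken toward 0, as those of all features with few reads are. In limma it was -2.21 (95% interval -3.50 to -0.92, adjusted p = 0.00485), and without siNC b the call was lost (-2.14, adjusted p = 0.0687). Among the 689 features with a mean within 1.25 times of that of HOXD11, 2.03% were called lower in the authors' deposited table.

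HOXD10 had 6.70 and 11.2 normalized counts in siNC a and b, and 3.47, 2.14 and 2.25 in siHOTAIR a, b and c. Its groups did not overlap either, with means of 8.95 ± 3.19 (SD, n = 2) and 2.62 ± 0.734 (SD, n = 3), or 29.3% of siNC. The reads behind them numbered 18 and 8, which leaves this ratio imprecise too. For HOXD10 the authors' deposited table gives -1.11 on the log2 scale (SE 0.572, adjusted p = 0.11), whereas limma gave -1.44 (95% interval -2.58 to -0.30, adjusted p = 0.036), so its call depended on the test. The limma call was also lost without siNC a (adjusted p = 0.0696), without siNC b (0.323) and without siHOTAIR b (0.0609). The siHOTAIR values lay under all siNC values for 3 of the 6 tested genes (HOXD10, HOXD11 and MTX2), and for 32.5% of the 10577 features that have both recovered reads and an adjusted p. With 3 libraries against 2, an exact permutation test over libraries cannot go below a two-sided p of 0.2, the value for each of these 3 genes. HOXD10 and HOXD11 overlap on the same strand in the GENCODE 29 annotation, and so do HOXD3 and HOXD4. How the authors' counting split such reads does not stand in the sources used here.

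**Figure D1:**
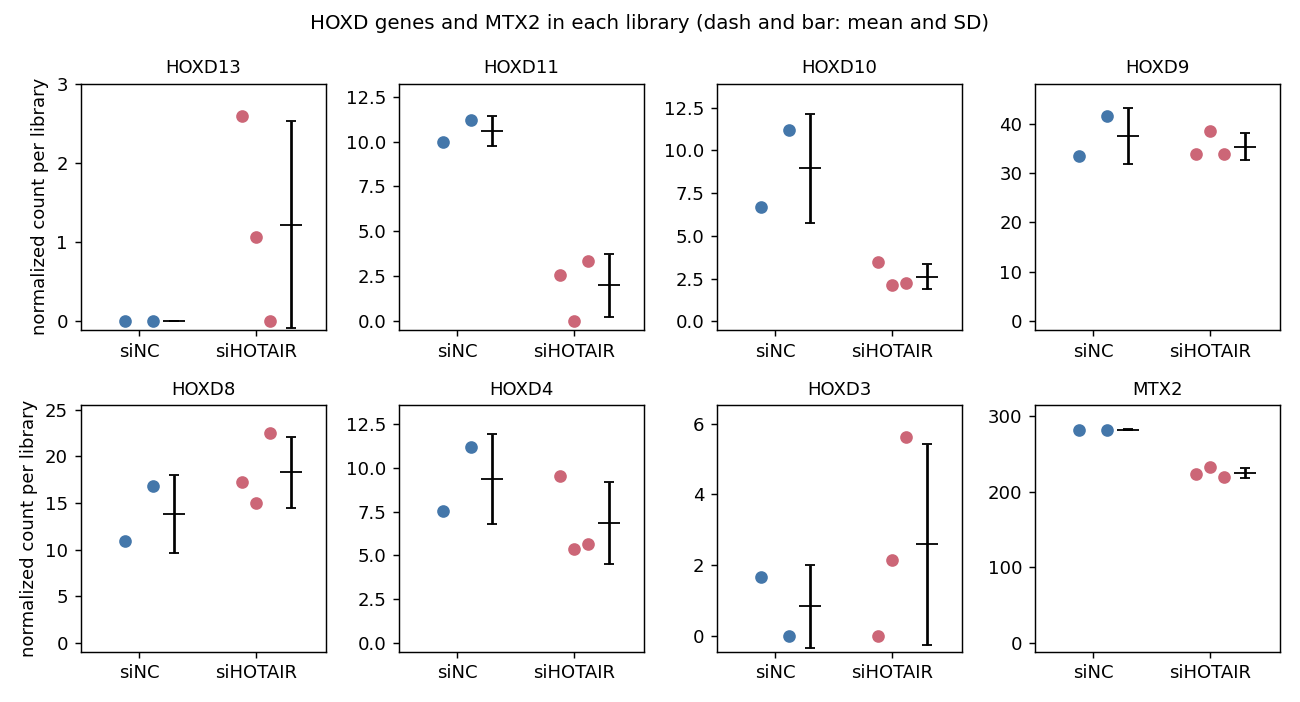
Normalized counts (linear axis, a separate scale in each panel) of the 8 genes with a row, one point per library, with the group mean (dash) and SD (bar) beside the points; n = 2 for siNC and 3 for siHOTAIR. For HOXD11, HOXD10 and MTX2 every siHOTAIR point lies under both siNC points, while the points of the other 5 genes overlap.

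The stretches in front of these 2 genes and of MTX2, the members whose libraries separated, are shown for comparison of their CpG content, since PRC2 is known to bind at CpG-rich promoters. They are the 250 bases before the RefSeq gene start (GRCh38.p14), at chr2:176107030-176107279 (+ strand) for HOXD11, chr2:176116528-176116777 (+ strand) for HOXD10 and chr2:176269192-176269441 (+ strand) for MTX2, written 5′ to 3′ with each CG in capitals.
HOXD11: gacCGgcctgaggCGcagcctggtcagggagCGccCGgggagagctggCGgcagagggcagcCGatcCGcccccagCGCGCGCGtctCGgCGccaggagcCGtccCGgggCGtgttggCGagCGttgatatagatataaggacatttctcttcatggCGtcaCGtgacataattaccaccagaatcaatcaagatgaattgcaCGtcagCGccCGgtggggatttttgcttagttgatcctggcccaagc
HOXD10: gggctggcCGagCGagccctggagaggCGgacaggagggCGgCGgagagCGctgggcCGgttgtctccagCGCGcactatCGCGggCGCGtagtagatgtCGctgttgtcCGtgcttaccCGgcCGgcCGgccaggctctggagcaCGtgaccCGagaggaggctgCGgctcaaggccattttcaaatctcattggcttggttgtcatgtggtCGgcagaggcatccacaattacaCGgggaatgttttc
MTX2: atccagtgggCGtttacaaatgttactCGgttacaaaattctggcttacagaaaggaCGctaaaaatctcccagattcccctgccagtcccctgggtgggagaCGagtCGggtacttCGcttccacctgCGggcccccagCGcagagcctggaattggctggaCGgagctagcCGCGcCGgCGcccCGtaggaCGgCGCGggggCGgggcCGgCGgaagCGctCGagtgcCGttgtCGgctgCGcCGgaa
CG, which reads the same on both strands, occurs 23 times in the HOXD11 stretch, 23 times in that of HOXD10 and 26 times in that of MTX2. The median over 27305 promoters of this length is 11. At least 23 are held by 25.4% of them, and at least 26 by 19.2%. The other matched genes had 31 (HOXD1), 28 (HOXD8), 21 (HOXD3 and HOXD13), 14 (EVX2) and 4 (HOXD4), and HOXD9 had no entry. Counts above the median thus also lay in front of HOXD8, HOXD3 and HOXD13, whose libraries overlapped between groups.

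HOXD9, HOXD8 and HOXD4 held most of the cluster's reads and overlapped between groups. HOXD9, another posterior gene, had 33.5 and 41.5 normalized counts in siNC a and b and 33.8, 38.5 and 33.8 in siHOTAIR a, b and c. The difference was smaller than the spread within siNC (37.5 ± 5.63, SD, n = 2, against 35.4 ± 2.74, SD, n = 3), and limma gave a log2 change of -0.08 with a 95% interval of -0.55 to 0.40. HOXD8, a central gene of the cluster, had 10.9 and 16.8 normalized counts in siNC and 17.3, 15 and 22.5 in siHOTAIR. Its siHOTAIR b library lay between the siNC libraries, and the authors' deposited table gives 0.36 (SE 0.418, adjusted p = 0.538). HOXD4, an anterior gene, had 7.54 and 11.2 normalized counts in siNC and 9.53, 5.35 and 5.63 in siHOTAIR, and stood at -0.31 on the log2 scale (adjusted p = 0.688, SE 0.521) in the authors' deposited table. The limma estimate of HOXD11 (-2.21) lay outside the limma intervals of HOXD9, HOXD8 (-0.30 to 1.08) and HOXD4 (-1.35 to 0.51). The limma interval of HOXD11 itself (-3.50 to -0.92) overlapped that of HOXD4. With 95% intervals from the authors' SE, that of HOXD11 (-2.63 to -0.38) overlapped those of HOXD9 (-0.65 to 0.51), HOXD8 (-0.46 to 1.18) and HOXD4 (-1.33 to 0.71). Differences in change between HOXD genes were not tested.

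The anterior gene HOXD3 and the most posterior gene of the cluster, HOXD13, known for its part in digit formation, were near the limit of detection. HOXD3 had 2 and 0 reads in siNC a and b and 0, 2 and 5 in siHOTAIR a, b and c, which overlap. HOXD13 had 0 reads in both siNC libraries and 3, 1 and 0 in siHOTAIR. Neither has an adjusted p in the authors' deposited table, where their log2 fold changes were 0.45 (SE 0.559) and 0.41 (SE 0.426). The group means of both genes lie near or under the worth of 3 reads in a library, which is 2.51 to 3.38 normalized counts. A fall or a small rise of either gene was therefore not detectable at this depth. A large rise from as few reads could be called. The endothelial gene VWF had 0 and 1 reads in siNC and 8, 5 and 12 in siHOTAIR (adjusted p = 0.00609 in the authors' deposited table).

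Taking the 7 HOXD genes with a row together, the summed normalized count was 70.3 and 91.9 in siNC a and b and 69.3, 64.2 and 73.2 in siHOTAIR a, b and c, so the sums overlapped. The genes already seen to be lower, HOXD10 and HOXD11, made up less of the HOXD reads in siHOTAIR. HOXD10 and HOXD11 gave 20 of 84 HOXD reads in siNC a (23.8%, Wilson 95% interval 16.0 to 33.9%) and 20 of 82 in siNC b (24.4%, 16.4 to 34.7%). In siHOTAIR they gave 7 of 80 reads (8.75%, 4.30 to 17.0%), 2 of 60 (3.33%, 0.919 to 11.4%) and 5 of 65 (7.69%, 3.33 to 16.8%). Each siHOTAIR share lay under both siNC shares, but the intervals of siHOTAIR a and c overlapped those of siNC a and b. This share does not depend on the size factors. The pair was singled out after its values were seen, so its smaller share restates its lower counts and no test is given. The intervals cover counting error only.

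Per kilobase of merged exons (GENCODE 29), HOXD9 was the highest HOXD gene, at 17.9 and 22.2 normalized counts per kilobase in siNC a and b and 18.1, 20.6 and 18.1 in siHOTAIR. In siNC the order of the mean levels then ran HOXD4 (6.40), HOXD8 (5.27), HOXD11 (5.04), HOXD10 (3.33), HOXD3 (0.236) and HOXD13 (0). The siNC ranges of HOXD4 (5.15 to 7.65), HOXD8 (4.14 to 6.39) and HOXD11 (4.76 to 5.31) overlapped, so these 3 were not separated, and that of HOXD10 (2.49 to 4.16) just overlapped that of HOXD8. In siHOTAIR HOXD8 (6.95) and HOXD4 (4.67) came next after HOXD9, and HOXD10 (0.973) and HOXD11 (0.944) stood close to HOXD3 (0.730) and HOXD13 (0.546). The ranges of HOXD8 (5.70 to 8.57) and HOXD4 (3.66 to 6.51) overlapped there, and so did those of HOXD10, HOXD11, HOXD3 and HOXD13. MTX2 was far above the cluster, at 164 normalized counts per kilobase in siNC and 131 in siHOTAIR.

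The non-coding RNAs of the cluster had overlapping groups. HOXD-AS2, which overlaps HOXD9, HOXD8 and HOXD3 on the opposite strand in GENCODE 29, had 19.3 and 20.2 normalized counts in siNC a and b and 25.1, 21.4 and 16.9 in siHOTAIR. HAGLROS had 15.9 and 6.72 in siNC and 8.66, 8.56 and 10.1 in siHOTAIR. HAGLR, an antisense RNA reaching from HOXD3 to HOXD1, had 16 reads in all. Of the 2 with an adjusted p, 0 rose and 0 fell in the DESeq2 fit of the authors' deposited table, with log2 fold changes of 0.10 for HOXD-AS2 (adjusted p = 0.865) and -0.27 for HAGLROS (adjusted p = 0.709). Their unadjusted p-values there were 0.789 and 0.576, and limma gave adjusted p-values of 0.858 and 0.768. The strand setting of the counting does not stand in the sources used here, so reads of HOXD9, HOXD8 or HOXD3 and of HOXD-AS2 may not be told apart. The same holds for HOXD3 and HAGLR, which overlap on opposite strands.

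MTX2, the first protein-coding gene beyond HOXD1, encodes metaxin 2, a protein of the outer mitochondrial membrane that takes part in protein import. It had 281 and 282 normalized counts in siNC a and b and 223, 232 and 219 in siHOTAIR a, b and c. The siNC libraries nearly coincided, and every siHOTAIR library was lower. The means were 282 ± 0.734 (SD, n = 2) and 224 ± 7.07 (SD, n = 3), or 79.7% of siNC, from 588 and 668 reads. For MTX2 the authors' deposited table gives -0.32 on the log2 scale (SE 0.127, adjusted p = 0.0295), and limma -0.33 (95% interval -0.55 to -0.11, adjusted p = 0.0131). The limma call of MTX2 was lost without siNC a (-0.33, adjusted p = 0.0653) and without siNC b (-0.32, adjusted p = 0.0715), at nearly the same size. Among the 1574 features with a mean within 1.25 times of that of MTX2, 27.8% were called lower in the authors' deposited table, so a call of this kind was common at this depth.

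The 15 genes with a row on each side of the cluster, by gene order in RefSeq and without MTX2, showed 4 of 27 tested genes that fell (14.8%) and 0 that rose in the DESeq2 fit of the authors' deposited table, with a median log2 fold change of -0.19. Over all features 20.4% fell and 40.4% were called. The share depended on the reach: with 30 genes on each side 17 of 50 were called (34.0%), of which 16 fell and 1 rose. At an unadjusted p under 0.05, 6 of 30 were lower and 1 was higher, without a share over all features to set beside them. Beyond MTX2 those that fell were HNRNPA3, an RNA-binding protein (-0.45, adjusted p = 3.74e-08), and PRKRA, an activator of the kinase PKR and partner of Dicer (-0.73, adjusted p = 9.13e-06), in the authors' deposited table. On the EVX2 side they were OLA1, an Obg-like ATPase (-0.29, adjusted p = 0.0126), and ATP5MC3, a subunit of the mitochondrial ATP synthase (-0.37, adjusted p = 0.0446), in the same table. HNRNPA3 and ATP5MC3 have many pseudogenes, so their reads may be shared. LNPK, the nearest gene with a row on the EVX2 side, named for its place and not by the rule for named genes, had 202 and 199 normalized counts in siNC and 206, 185 and 179 in siHOTAIR, at -0.07 on the log2 scale (adjusted p = 0.74, SE 0.143) in the authors' deposited table. Between LNPK and MTX2, HOXD11 was the only gene called in that table.

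**Figure D2:**
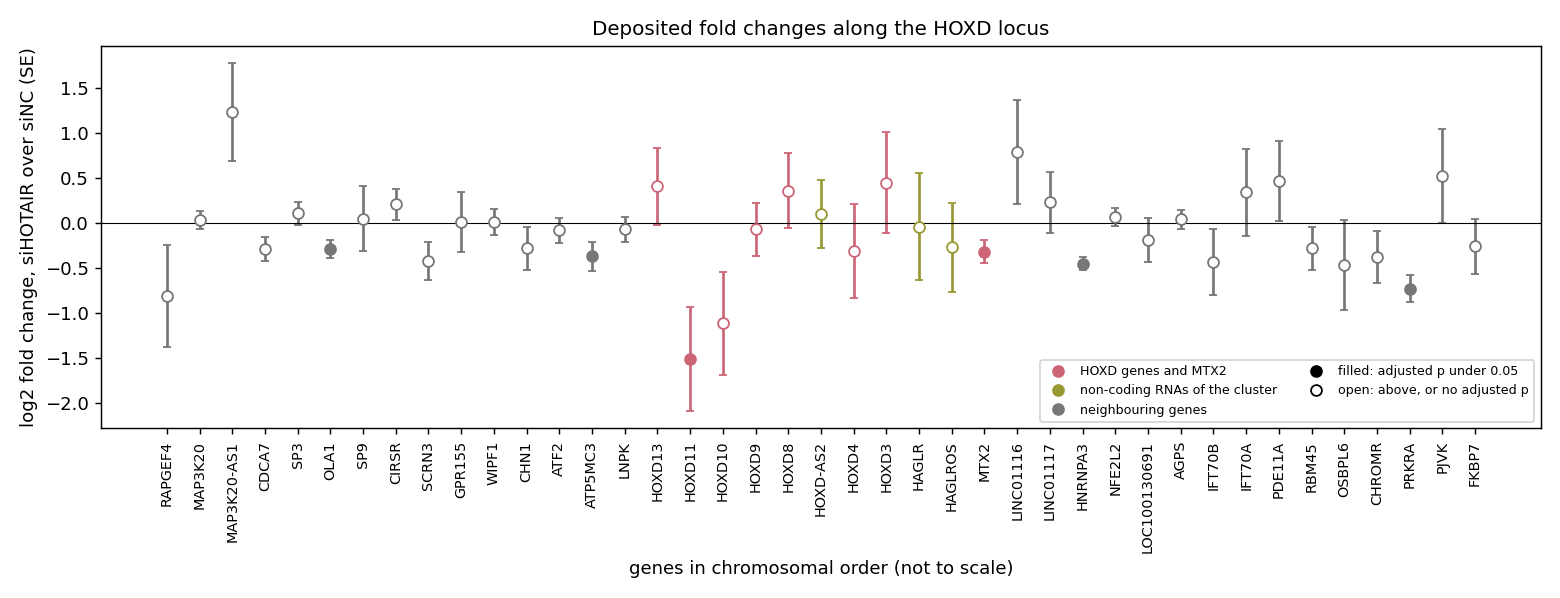
Log2 fold changes of siHOTAIR over siNC from the authors' deposited table (points) with their SE (bars) for the HOXD genes, MTX2, the cluster's non-coding RNAs and 15 neighbours on each side, in chromosomal order and not to scale; filled points have an adjusted p under 0.05. HOXD11 (-1.51) and HOXD10 (-1.11) are the lowest points, and the 6 filled points all lie below 0.

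Genes that work with metaxin 2 were read from a list of 21 genes of the metaxins, outer membrane import, the cristae-shaping MICOS complex and the channel VDAC. Of these 9 fell and 2 rose in the authors' deposited table (52.4% called, beside 40.4% over all features), and the median change was -0.10 on the log2 scale. Those with the smallest p-values were MICOS10 (-2.52) and APOOL (-0.93) of MICOS, the import receptors TOMM22 (1.20) and TOMM20 (0.50), DNAJC11 (-0.38) and APOO (-0.55) in the authors' deposited table. The other metaxins were named outside that rule, after their values were seen: MTX1 had -0.32 (adjusted p = 0.00248) and MTX3 -0.38 (adjusted p = 0.0128) there. All 3 metaxin genes were thus lower, by 0.32 to 0.38 on the log2 scale. SAMM50, the channel protein that metaxins assemble with and likewise named afterwards, was at -0.15 (adjusted p = 0.277) there.

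The HOXA, HOXB and HOXC paralogues of the HOXD genes were more abundant and moved in both directions. Of 18 paralogues with a row 4 fell and 2 rose in the authors' deposited table (33.3% called, median log2 fold change 0.10), beside 40.4% over all features. In paralogue group 11, HOXA11 fell with HOXD11 and HOXC11 rose. HOXA11 had 334 and 356 normalized counts in siNC a and b and 237, 230 and 220 in siHOTAIR (-0.58, adjusted p = 1.55e-05, in the authors' deposited table). HOXC11 had 239 and 250 in siNC and 317, 331 and 297 in siHOTAIR (0.36, adjusted p = 0.0103, in the authors' deposited table). Neither pair of groups overlapped. In group 10, HOXC10, of the cluster that holds HOTAIR, rose by 0.45 (adjusted p = 2.94e-06) in the authors' deposited table. HOXD10 was at -1.11 there. In group 13, HOXA13, a limb and hindgut gene, had 117 and 122 normalized counts in siNC and 63.2, 55.7 and 47.3 in siHOTAIR, with a log2 fold change of -1.06 (adjusted p = 3.8e-06) in the authors' deposited table. HOXD13 was too low for a comparison.

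**Figure D3:**
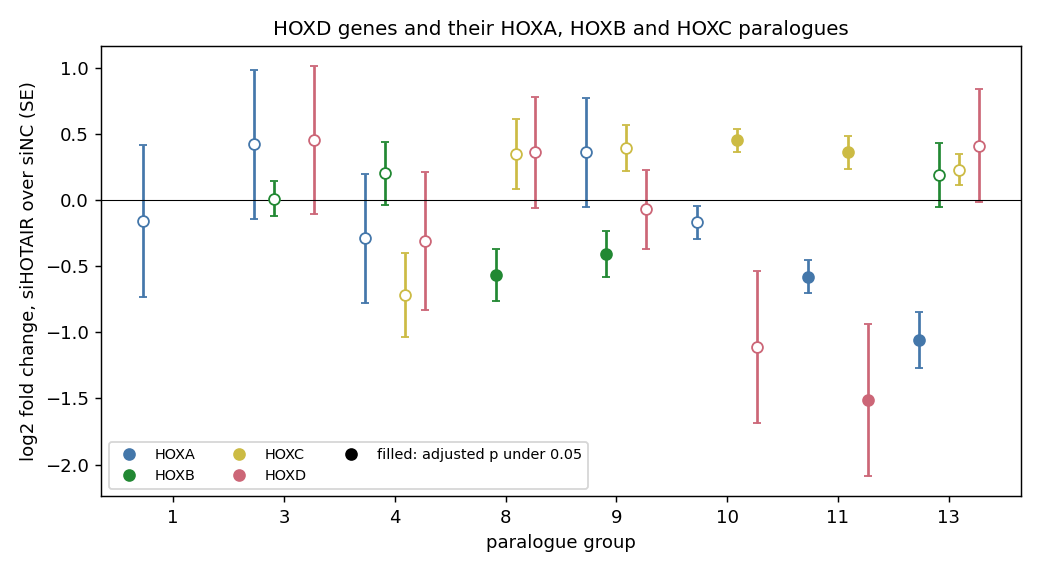
Log2 fold changes of siHOTAIR over siNC from the authors' deposited table (points) with their SE (bars), by paralogue group and cluster; filled points have an adjusted p under 0.05. In group 11 the filled HOXD11 (-1.51) and HOXA11 (-0.58) points lie below 0 and HOXC11 (0.36) above it.

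Among the more anterior paralogues, HOXB8 and HOXB9 fell. HOXB8 had 115 and 115 normalized counts in siNC a and b, and 76.2, 70.7 and 83.4 in siHOTAIR, with a log2 fold change of -0.57 (adjusted p = 0.0117) in the authors' deposited table, while HOXD8 was at 0.36 there. HOXB9 had 182 and 165 in siNC and 109, 158 and 124 in siHOTAIR, with -0.41 (adjusted p = 0.0441) in that table, where HOXD9 had -0.07. The difference in change between a HOXD gene and its paralogue was not tested.

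Of 18 genes for the chromatin complexes and partners described for HOTAIR, 5 rose and 2 fell in the authors' deposited table, a share (38.9%) near the 40.4% called over all features. The LSD1 demethylase KDM1A (-1.0) and the deacetylase HDAC1 (-0.29) fell. PHF19 (0.68) and JARID2 (0.53), both PRC2 accessory subunits, the repressor REST (0.58) and RCOR2 (0.49) rose in the authors' deposited table. Of 16 tested regulators of HOX clusters 9 rose and 3 fell (75.0% called, median 0.23, beside 40.4% and 0.01 over all features). The retinoic acid receptors RARA (0.63) and RARG (0.58), the methyltransferase subunit WDR5 (0.42), the insulator protein CTCF (0.43) and MEN1 (0.35) rose, and ASH2L (-0.47) fell, in the authors' deposited table. The named regulators had means of 384 to 734, above those of all HOXD genes. Of 8 TALE cofactors, which bind DNA together with HOX proteins, 2 rose and 2 fell (50.0% called). PBX2 (-0.39) was among those that fell, and PKNOX1 (0.48) and MEIS3 (1.71, mean 6.74) rose in the authors' deposited table.

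Beside these results stand the levels of markers for 3 other cell types. Over the 5 of 7 fibroblast markers with recovered reads the summed normalized count was 177 to 226 in siNC and 394 to 417 in siHOTAIR. Endothelial markers (4 of 6) summed to 73.7 to 76.2 in siNC and 91.0 to 121 in siHOTAIR, and leukocyte markers (4 of 6) to 184 to 204 and 127 to 154. Single genes made up most of these sums. COL1A1 (mean 1591) and ENG (mean 1602) lie above the mean limit for recovered reads and are not in them. Both were higher in the authors' deposited table (0.86, adjusted p = 3.25e-22, and 0.54, adjusted p = 1.5e-12). Of the tested markers, 3 of 5 fibroblast and 2 of 4 endothelial genes rose there and 0 fell. Of 3 tested leukocyte markers 0 rose and 1 fell, beside 40.4% called over all features. PDGFRB, a receptor of mural cells and fibroblasts, had 157 and 118 normalized counts in siNC and 333, 323 and 340 in siHOTAIR, while COL3A1 and FAP overlapped between groups. The lysosomal protein CD68 had 177 and 197 in siNC and 143, 140 and 117 in siHOTAIR, while LYZ was higher in each siHOTAIR library (6.06, 9.64 and 5.63 against 1.67 and 3.36; adjusted p = 0.197 in the authors' deposited table) and CD14 overlapped. These genes were named after their values were seen. Their part in the HOXD results was not tested. In bulk RNA, fewer cells that express a gene and less RNA per cell cannot be told apart.

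Depth set what could be called. The authors' SE was highest at means of a few reads, where it reached 0.596, and HOXD10 and HOXD11 sat close to that peak with means of 5.15 and 5.45. HOXD8 (mean 16.5) and HOXD9 (mean 36.2) had SEs of 0.418 and 0.298, and MTX2 (mean 247) one of 0.127. A log2 change as small as that of MTX2 was therefore within 1 SE for HOXD4, HOXD8, HOXD10 and HOXD11 in the authors' deposited table.

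**Figure D4:**
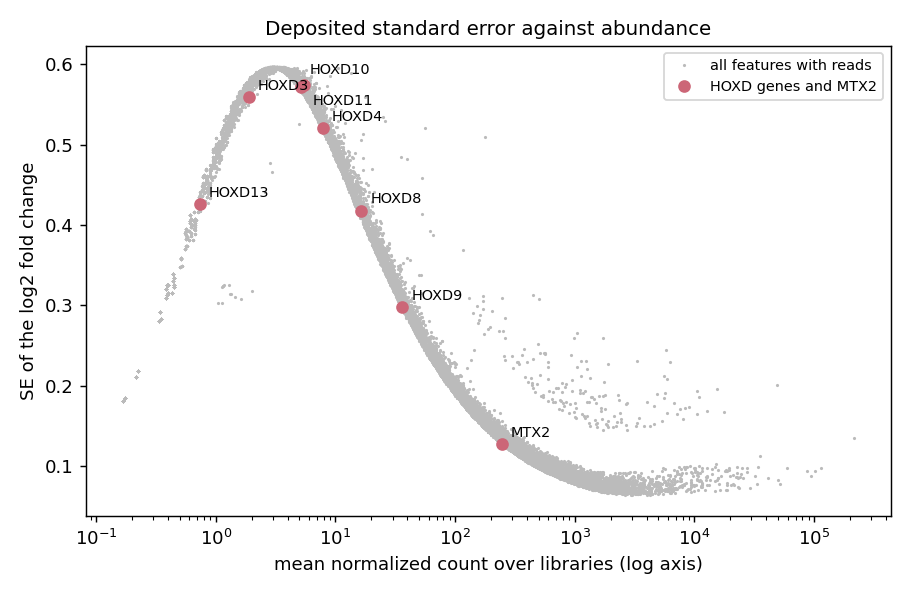
SE of the log2 fold change against mean normalized count (log axis), both from the authors' deposited table, for all features with reads (grey) and the 8 genes described (red). The HOXD genes follow the curve of all features, with HOXD10 and HOXD11 near its peak and MTX2 at an SE of 0.127.

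Profiles most like those of the called genes were sought among named features with a mean within 2 times, by Euclidean distance of centred log2 normalized counts (plus 1) over the 5 libraries. Of 2062 features, MINDY4 (distance 0.753), SLC11A1 (0.786) and SPINK6 (0.895) were nearest to HOXD11. In the authors' deposited table their changes on the log2 scale were -1.0, -1.31 and -1.01, and SPINK6, the one with an adjusted p, had 0.171. Of 4639 features, AREL1 (distance 0.0212), MMACHC (0.0442) and FAM167B (0.0590) were nearest to MTX2, with -0.32 (adjusted p = 0.0113), -0.29 (0.0973) and -0.32 (0.126) in the authors' deposited table.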

How the data were processed

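RNA sequencing libraries labelled siHOTAIR or siNC were grouped by title. Per the submitters' processing notes the tools were HTSeq 0.6.1, DESeq and DESeq2 with build hg19; aligner, annotation and strand setting do not stand in the sources used here. Per the file headers, the deposited signal is a mean of normalized counts; the log2 fold changes with SE, the score (fold change over SE), the p-values and the adjusted p-values are the authors' DESeq2 results. No column holds a single library, so the planned edgeR fit was not run, and the authors' adjusted p was used instead (threshold 0.05).

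Reads per library were solved from the deposited means as whole-number combinations of 5 steps, each the worth of 1 read. Steps were assigned to a group by the sign of the fold change of features with 1 read there. Of 15445 features with reads and a mean of at most 500, 15441 were solved, and 0 after an offset of the means. On simulated data 2841 of 2876 features were solved, all rightly. The recovered reads of siNC a and b total 1885940 and 1408568, and those of siHOTAIR a, b and c 1754467, 1413437 and 1337613; reads above that mean are not included. limma 3.58.1 (R 4.3.3) with a mean trend was fitted to log2 (normalized count + 1) of the 10141 features with a mean of at least 5, with Benjamini-Hochberg adjustment. On simulated data of 10141 features it found 45 of 100 changes of 1 and 83 of 100 of 1.5 on the log2 scale. It made 1 call among 9941 unchanged features. The simulation gave all features the same dispersion and changed far fewer of them than the 4327 that limma called in the data. Its rates therefore do not give the power at the few reads of HOXD10 and HOXD11.

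Symbols came from RefSeq (GRCh38.p14), 19108 by gene ID, 386 by accession and 95 unmatched; hg19 coordinates were not used. Members and gene lists were chosen with earlier results of these data known. Named were all members, the genes past the threshold in other lists (at most 6 by smallest p), HOTAIR, and the 3 most similar profiles. Some genes that this rule names are left out here.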

Additional observations from a re-analysis of the deposited data

How the results depend on the processing

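No paired analysis was possible because the recovered libraries carry no replicate number. Against 2 of 6 genes called lower, 2 of 8 were by unadjusted p. By limma 3 (HOXD10, HOXD11 and MTX2) were called lower with either pseudocount, without a filter (of 8), with voom, or scaled to recovered totals. Under each of these settings 0 were called higher. The authors' own call word, in their other deposited table, marked 0 of 8. With features of a mean up to 100 alone, chosen after seeing the data, 1 of 5 (HOXD11) was called; MTX2 lies above that mean and HOXD10 had an adjusted p of 0.0618. Leaving out each library in limma gave 0 to 3 calls: without siNC b 0 and without siNC a 1 (HOXD11), with the remaining siNC library assumed to vary like the others. HOXD11 then ranged from -2.61 to -1.55 (adjusted p 0.00108 to 0.0687), HOXD10 from -1.77 to -1.11 (0.0403 to 0.323) and MTX2 from -0.35 to -0.31 (0.0263 to 0.0715). HOXD9 ranged from -0.23 to 0.07, above 0 without siNC b. HOXD11 was at -2.16 from group means with a pseudocount of 0.5.

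Among chromosome 2 neighbours 4 of 27 were called; an unadjusted p gave 7 of 30, 5 genes on each side 2 of 9, and 30 on each side 17 of 50, of which 16 fell and 1 rose. Paralogue calls were 6, or 8 by unadjusted p. For the counts by unadjusted p, the share of all features is not given here. Few reads limit HOXD3, HOXD13, HOXD10 and HOXD11. Paralogues and neighbours above a mean of 500 have no value per library, so no library was left out for their counts.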
